A study of Solanum lycopersicum with 2 samples.

Results

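Wound-induced proteinase inhibitors were followed in leaves of tomato (Solanum lycopersicum) cultivar Moneymaker as 10 gene models in 3 tandem clusters. The models were taken by identifier, from a list that names 2 groups on chromosome 9 as proteinase inhibitor I and 1 group on chromosome 3 as proteinase inhibitor II. All 10 were listed in both libraries, out of 24915 models listed in at least 1 of them. The list was drawn up with earlier results of this same comparison of heat stress with control known, so every value below describes these libraries and none is a test. The deposited data carry identifiers without gene names, and 0 identifiers matched the reference table used here. The family names are therefore those of the list, and neither they nor the wound response in the name could be checked, since no wounded leaves were among the samples. For the same reason the leaf label was not checked against marker genes, and no sequences of the members are printed.

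Proteinase inhibitors I and II are small plant proteins that bind and block serine proteases, among them digestive enzymes of chewing insects. In tomato leaves they are textbook products of wounding: damage releases the peptide systemin and raises jasmonate, and the genes are then switched on both in the damaged leaf and in distant, undamaged leaves. Both families are known to occur as tandem gene copies, and reads from near-identical copies can be hard to place.

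The data were 2 libraries made by MACE (massive analysis of cDNA ends), a method that reads polyadenylated RNA at its 3' end alone, 1 read for each transcript molecule. The heat-stress library came from plants moved to a growth chamber lit at 120 μmol m-2 s-1, kept for 1 h at 39°C and then for 1.5 h at 24°C. The control library came from plants labelled as not stressed. Plants of both groups were 8 weeks old, had grown in a glasshouse with days of 16 h at 24°C and nights of 8 h at 20°C, and gave young leaves of mixed stages. Whether control plants spent time in the chamber, the hour of sampling and the number of plants pooled are not in the labels. The heat-stress library had 13857252 mapped reads, of which 71.1% lay in listed models, and the control library had 11534512, of which 72.5% did. Levels are in reads per 1000000 mapped reads (RPM), and 1 read was worth 0.0722 RPM in the heat-stress library and 0.0867 RPM in the control library. As each transcript gives 1 read whatever its length, levels of different models are set side by side without a length term.

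There was 1 library per condition, so no difference has a replicate check, and preparation, sampling and treatment cannot be told apart. Intervals are exact 95% intervals on reads rounded to whole numbers (Poisson for a level, conditional binomial for a ratio). They cover counting error only, and the spread between plants is unknown. In whole leaves, fewer cells of a type and less RNA per cell cannot be told apart.

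The comparison of heat stress with control asks how leaf transcripts differed after heat. The 3 clusters differed in different ways. The second chromosome 9 cluster (Solyc09g089500, Solyc09g089510, Solyc09g089530 and Solyc09g089540) was lower in the heat-stress library, at 66.8 RPM in sum against 290.7 RPM in the control library. The first chromosome 9 cluster (Solyc09g084470, Solyc09g084480 and Solyc09g084490) was close to level, at 101 RPM in the heat-stress library against 98.7 RPM in the control library. The chromosome 3 cluster (Solyc03g020050, Solyc03g020060 and Solyc03g020080) was higher, at 20.4 RPM in the heat-stress library against 12.7 RPM in the control library. The ratio of heat stress to control was 0.230 (0.214 to 0.247) for the second chromosome 9 cluster, 1.02 (0.941 to 1.10) for the first and 1.60 (1.30 to 1.96) for the chromosome 3 cluster. The intervals of the 3 ratios did not overlap.

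**Figure D1:**
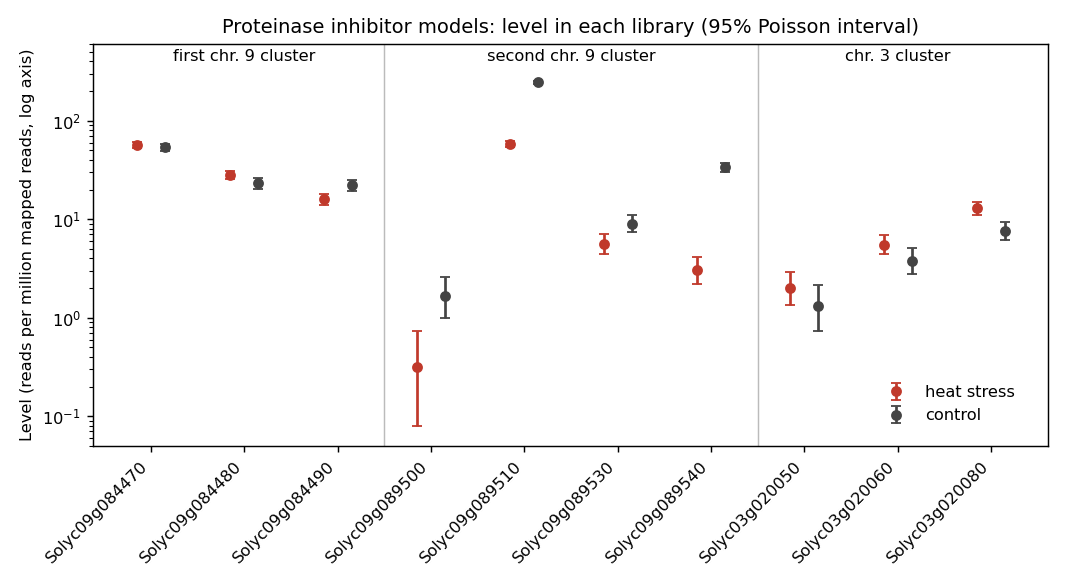
Level of each of the 10 members in RPM, on a log axis, in the heat-stress library (red) and the control library (grey), with 95% Poisson intervals that cover counting error only. All 4 members of the second chromosome 9 cluster lie lower in the heat-stress library, with the widest gap for Solyc09g089540 (3.04 RPM against 33.7 RPM), and all 3 members of the chromosome 3 cluster lie higher.

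Solyc09g089510, listed as a proteinase inhibitor I, was the most abundant member in both libraries. It had 801 reads in the heat-stress library and 2841 in the control library, which is 57.8 RPM (53.9 to 61.9) against 246 RPM (237 to 256). The 2 intervals were far apart, and the level in control was 4.26 times that after heat stress (3.94 to 4.61). Its rank among the models of each library was 2282 after heat stress and 370 in control.

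Solyc09g089540, of the same cluster and also listed as a proteinase inhibitor I, differed more. It had 42 reads in the heat-stress library and 388 in the control library, or 3.04 RPM (2.18 to 4.10) against 33.7 RPM (30.4 to 37.2). Its ratio of heat stress to control was 0.0904 (0.0639 to 0.124). Among the 10 members it stood at place 8 in the heat-stress library, where its interval overlapped that of Solyc03g020050, and at place 3 in the control library.

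Solyc09g089530, which lies between these members in identifier order, differed less. It had 78 reads in the heat-stress library and 104 in the control library, or 5.66 RPM (4.45 to 7.03) against 9.02 RPM (7.37 to 10.9). Its ratio was 0.628 (0.459 to 0.845), an interval that does not overlap those of Solyc09g089510 (0.217 to 0.254) or Solyc09g089540 (0.0639 to 0.124). The level of Solyc09g089540 was 0.538 times that of Solyc09g089530 in the heat-stress library and 3.74 times in the control library, so their order was opposite in the 2 libraries.

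Solyc09g089500, at the low-numbered end of the cluster, was the weakest member in the heat-stress library. It had 4 reads there and 19 in the control library, or 0.313 RPM (0.0786 to 0.739) against 1.64 RPM (0.992 to 2.57). Its ratio was 0.190, with a wide interval of 0.0434 to 0.527. All 4 members of the cluster were thus lower in the heat-stress library, and all 4 ratio intervals lay below 1. Of all 24915 listed models 10255 were lower there, and their intervals are not given here.

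The sum of the cluster was carried by Solyc09g089510, which held 86.5% of its reads in the heat-stress library (84.1 to 88.6%) and 84.7% in the control library (83.5 to 85.9%). Those intervals overlapped. Without it the other 3 members had 9.01 RPM in the heat-stress library against 44.3 RPM in the control library, a ratio of 0.203 (0.166 to 0.248). The lower level of the cluster thus did not rest on its most abundant copy alone. Of the reads left, Solyc09g089540 had 388 of 511 in the control library, so this ratio rests mainly on that copy. In the heat-stress library Solyc09g089530 had 78 of 125. Reads hard to place among copies could enter both sums, which was not tested. Within the cluster the share of Solyc09g089540 was 4.56% in the heat-stress library (3.29 to 6.08%) against 11.6% in the control library (10.5 to 12.7%). The share of Solyc09g089530 was 8.47% (6.72 to 10.4%) against 3.10% (2.54 to 3.75%).

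The first chromosome 9 cluster, listed under the same inhibitor family, held the member with the second highest level in both libraries. Solyc09g084470 had 784 reads in the heat-stress library and 618 in the control library, or 56.6 RPM (52.7 to 60.7) against 53.6 RPM (49.4 to 58.0). Its intervals overlapped, and its ratio was 1.06 (0.949 to 1.18). In the heat-stress library it stood level with Solyc09g089510, which had 1.02 times its level there and 4.60 times its level in the control library.

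Solyc09g084480 had 28.0 RPM in the heat-stress library (25.3 to 30.9) against 23.1 RPM in the control library (20.4 to 26.0). Its ratio was 1.21 (1.04 to 1.42). Solyc09g084490 had 16.0 RPM in the heat-stress library (13.9 to 18.2) against 22.02 RPM in the control library (19.4 to 24.9), with a ratio of 0.725 (0.602 to 0.871). These neighbours therefore lay on opposite sides of 1. Their levels had overlapping intervals in the control library and separate ones in the heat-stress library.

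The chromosome 3 cluster, listed as proteinase inhibitor II, was the weakest in both libraries. Solyc03g020080, its most abundant member, had 178 reads in the heat-stress library and 88 in the control library, or 12.9 RPM (11.03 to 14.9) against 7.63 RPM (6.12 to 9.40). Its ratio was 1.69 (1.30 to 2.20). Solyc03g020060 had 5.52 RPM in the heat-stress library (4.39 to 6.94) against 3.77 RPM in the control library (2.77 to 5.12). Its ratio of 1.46 had an interval that reached just under 1 (0.993 to 2.16).

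Solyc03g020050 had 28 reads in the heat-stress library and 15 in the control library, or 2.00 RPM (1.34 to 2.92) against 1.30 RPM (0.728 to 2.14). Its ratio was 1.54 (0.802 to 3.13), so a difference was not detectable at this depth. The 3 members kept similar shares of the cluster. Solyc03g020080 held 63.1% of its reads in the heat-stress library (57.2 to 68.8%) and 60.1% in the control library (51.5 to 67.9%).

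**Figure D2:**
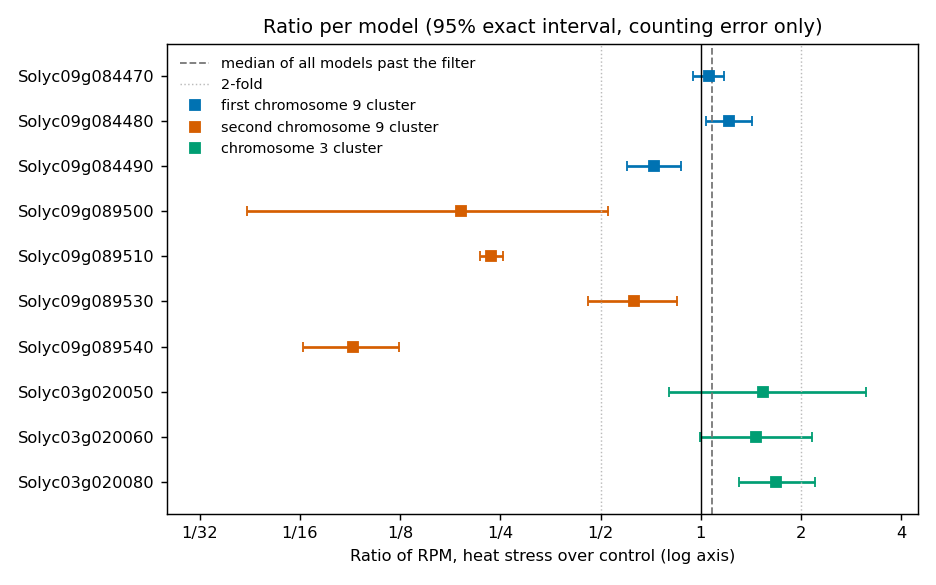
Ratio of RPM, heat stress over control, for each member on a log axis, with exact 95% intervals that cover counting error only and colours for the 3 clusters. Dotted lines mark 2-fold, and the dashed line marks the median ratio of all models past the filter, 1.08. Of the 10 intervals 5 lie below 1, 2 above 1 and 3 hold 1. No such count over all models is given here, so nothing is read from these numbers.

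Models over the whole series were compared on log2((heat stress + 1)/(control + 1)) of RPM, a scale that understates the change of low models. A filter kept the 11271 models that averaged 5 RPM or more over both libraries. Of these, 1.66% were lower by 2-fold or more after heat stress and 3.91% higher by as much. Of the 10 members 7 passed this filter, 2 of them (Solyc09g089510 at -2.07 and Solyc09g089540 at -3.10) passed 2-fold on the lower side and 0 on the higher side. The list was chosen with this contrast known, so nothing is read from these counts against the background. Both were also lower by 4-fold or more, as were 0.0799% of all models past the filter, 9 in number. With no filter 3 of the 10 members passed 2-fold on the lower side, where 0.943% of 24915 models did. With a filter of 20 RPM 1 of the 3 members left did, where 1.96% of 5865 models did. In the order of log2 ratios from the lowest, Solyc09g089540 was at place 1 and Solyc09g089510 at place 6 of 11271, while Solyc03g020080, at 0.68, was at place 1018 from the highest. Solyc09g089540, at 3.04 RPM in the heat-stress library, passed the filter of 5 RPM only through its 33.7 RPM in the control library. With the list chosen on this contrast, nothing is read from these places either.

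The other 4 members past the filter had log2 ratios of -0.59 (Solyc09g089530), -0.44 (Solyc09g084490), 0.08 (Solyc09g084470) and 0.27 (Solyc09g084480). The 3 members under the filter were Solyc09g089500 at -1.01, Solyc03g020050 at 0.38 and Solyc03g020060 at 0.45. Over all 10 members the median log2 ratio was -0.18, with 5 above 0 and 5 below, and over all 24915 listed models without a filter it was 0.07 (interquartile range -0.12 to 0.28). Over the 7 members past the filter it was -0.44, with 3 above 0 and 4 below, and over all models past the filter 0.10 (interquartile range -0.17 to 0.37). As with the counts, nothing is read from these medians. With no pseudocount the median of the models past the filter with reads in both libraries was 0.11, a factor of 1.08. Relative to that median, log2 ratios without a pseudocount were -3.58 for Solyc09g089540, -2.50 for Solyc09g089500, -2.20 for Solyc09g089510 and -0.78 for Solyc09g089530. The chromosome 3 members were still above it, by 0.44 to 0.64, and Solyc09g084470 went to the other side of 0, at -0.03. For Solyc09g084480 the ratio relative to the median was 1.12, with an interval that then held 1 (0.960 to 1.32).

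**Figure D3:**
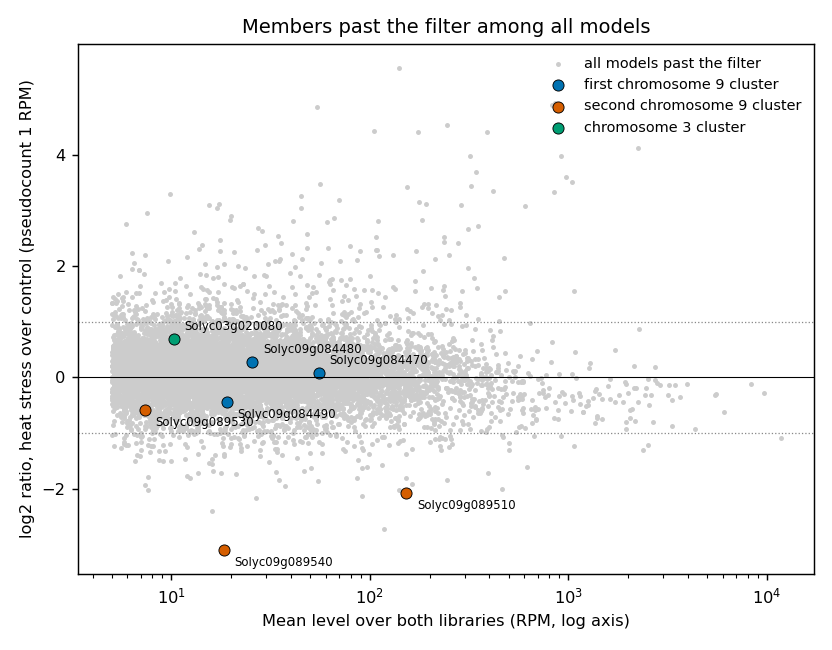
The log2 ratio of heat stress over control (pseudocount 1 RPM) against the mean level over both libraries in RPM, on a log axis, for all 11271 models past the filter (grey) and the 7 members among them (coloured by cluster). Solyc09g089540 (-3.10) and Solyc09g089510 (-2.07) lie at the lower edge of the models of their level, and the other 5 lie inside the 2-fold lines.

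Members were also set beside models with a like control level. The list was chosen with this contrast known, so nothing is read from these shares. Of 763 other models within 2-fold of the control level of Solyc09g089510, 37 were at least 2-fold lower (4.85%) and 3 at least 4-fold lower (0.393%). At least 2-fold higher were 26, and the median log2 ratio was -0.07. For Solyc09g089540 there were 4477 such models, of which 71 were at least 2-fold lower (1.59%), 2 at least 4-fold lower and 119 at least 2-fold higher. The median log2 ratio around Solyc09g089540 was 0.09. The models beside each member were chosen by their RPM in the control library. Being selected on that level can by itself shift their ratios, and the direction and size of such a shift were not tested. Around Solyc09g084470 the median of 3366 such models was 0.05, beside its own 0.08. Around Solyc03g020080 the median of 5168 was 0.14, beside its own 0.68.

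The highest member had 185 times the level of the lowest in the heat-stress library and 189 times in the control library. The lowest was Solyc09g089500 with 4 reads in the heat-stress library and Solyc03g020050 with 15 in the control library. Both factors thus rest on few reads and are imprecise. In the heat-stress library the order from the top was Solyc09g089510, Solyc09g084470, Solyc09g084480, Solyc09g084490 and Solyc03g020080, followed by Solyc09g089530, Solyc03g020060, Solyc09g089540, Solyc03g020050 and Solyc09g089500. Counting intervals overlapped there between places 1 and 2, 4 and 5, 6 and 7, and 8 and 9. In the control library the order was Solyc09g089510, Solyc09g084470, Solyc09g089540, Solyc09g084480 and Solyc09g084490, followed by Solyc09g089530, Solyc03g020080, Solyc03g020060, Solyc09g089500 and Solyc03g020050. Intervals overlapped there between places 4 and 5, 6 and 7, and 9 and 10.

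Together the 10 members had 188 RPM in the heat-stress library (181 to 195) against 402 RPM in the control library (391 to 414), a ratio of 0.467 (0.445 to 0.490). This total turned mainly on Solyc09g089510: without it the other 9 members had 129.9 RPM in the heat-stress library against 156 RPM in the control library, a ratio of 0.835 (0.781 to 0.892). Solyc09g089510 held 30.8% of the reads of all members in the heat-stress library (29.0 to 32.6%) and 61.3% in the control library (59.8 to 62.7%). The second chromosome 9 cluster as a whole held 35.6% in the heat-stress library and 72.3% in the control library. The first held 53.6% in the heat-stress library and 24.5% in the control library, and the chromosome 3 cluster 10.9% against 3.16%. The larger chromosome 9 cluster was thus the first after heat stress and the second in control.

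**Figure D4:**
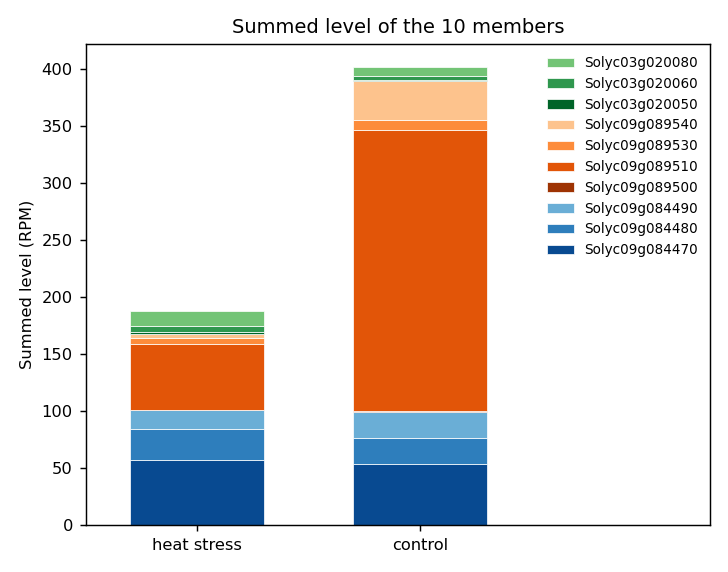
Summed level of the 10 members in RPM in the heat-stress library (left) and the control library (right), stacked by member, with blue for the first chromosome 9 cluster, orange for the second and green for the chromosome 3 cluster. The bars reach 188 and 402 RPM, and the segment of Solyc09g089510 spans 57.8 RPM in the heat-stress bar and 246 RPM in the control bar, while the blue segments are of nearly equal height.

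Reads of the members were often fractional. Such values are taken here as reads divided between places in the genome, which the deposited data do not spell out. Counts were fractional for 9 of the 10 members in the heat-stress library and for 6 in the control library, and 0 of the 10 were whole in both. Among all listed models 21.8% were fractional in the heat-stress library and 19.5% in the control library. Solyc09g089540 had about 388.467 reads in the control library, and the smallest multiplier that made the deposited count whole was 15. For Solyc09g084480 in the control library the multiplier was 55, and for Solyc09g089500 it was 30. The number of divided reads and their places are unknown, so the part of this division in the ratio of any single copy was not tested. Cluster sums are less exposed to a division among copies of the same cluster, but not to one between clusters or with models elsewhere.

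The identifiers hold 2 further models inside the clusters that the list leaves out. Solyc09g089520, inside the second chromosome 9 cluster, had 2.85 RPM in the heat-stress library against 8.27 RPM in the control library, a ratio of 0.345 (0.236 to 0.512). Solyc03g020070, inside the chromosome 3 cluster, had 2.09 RPM in the heat-stress library against 1.17 RPM in the control library, a ratio of 1.79 (0.882 to 3.53). Each was on the same side of 1 as the cluster around it. With them the cluster ratios were 0.233 (0.217 to 0.250) and 1.62 (1.33 to 1.97), close to those of the listed members. The reads of the 4 models of the chromosome 3 cluster added to 311.3 in the heat-stress library and 160 in the control library, and those of the 5 models of the second chromosome 9 cluster to 965.1 in the heat-stress library and 3448.1 in the control library. The sum was whole in 1 of these 4 cases, so summing a cluster did not in general remove the fractions.

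Beyond the clusters, models whose identifier number lay within 50 of the first or last member were counted, the 2 models inside included. Around the second chromosome 9 cluster 6 such models were listed, 4 passed the filter and 2 of those were at least 2-fold lower: Solyc09g089520 and Solyc09g089490. Over all models past the filter 1.66% were. Solyc09g089520, with a mean of 5.56 RPM, passed only through its level in the control library, so nothing is read from this count. Solyc09g089490 has the identifier just before the cluster and lies on the same strand, and it had 7.70 RPM in the heat-stress library against 27.7 RPM in the control library, a ratio of 0.278 (0.222 to 0.349). The other 2, past the high-numbered end, had log2 ratios of 0.08 and 0.13. Around the first chromosome 9 cluster 3 were listed and 1 passed the filter, at 0.13. Around the chromosome 3 cluster 7 were listed and 1 passed, at 0.34. All 6 models of the run from Solyc09g089490 to Solyc09g089540, on 1 strand, were thus lower in the heat-stress library. Of all 24915 listed models 10255 were lower there. The ends of the run were drawn with these values known, and its models may share divided reads, so they are not separate observations. The next model, Solyc09g089550, lies on the other strand and had 3.97 RPM in the heat-stress library against 2.95 RPM in the control library.

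Another deposited value, the highest peak of a model in reads, is given here as a percentage of the model's reads. The peak is not always a part of those reads: Solyc03g020010 had a peak of 2 with 1 read in the heat-stress library. The intervals treat it as a part, so they are approximate. For Solyc09g089510 the highest peak was 27.9% in the heat-stress library (24.8 to 31.1%) and 27.3% in the control library (25.6 to 29.0%). For Solyc09g089540 it was 29.6% in the heat-stress library (17.6 to 47.1%) and 31.02% in the control library (26.6 to 36.05%). For both models the intervals of the 2 libraries overlapped. The ratio of peak heights per 1000000 mapped reads was 0.240 for Solyc09g089510 and 0.0863 for Solyc09g089540, close to the ratios of all reads. On the log2 scale with a pseudocount of 1 RPM, Solyc09g089540 was at -2.59 by peak height and -3.10 by all reads, as peak heights are lower values and the pseudocount weighs more on them. For the 8956 models with 100 reads or more in each library, the median was 24.7% in the heat-stress library and 25.4% in the control library.

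The chromosome 3 members had higher peak percentages. Each had under 100 reads in the control library, so the median above does not cover them. The highest peak of Solyc03g020080 was 73.0% in the heat-stress library (65.9 to 79.4%) and 73.9% in the control library (63.4 to 82.7%). For Solyc03g020060 it was 51.0% in the heat-stress library (39.0 to 62.2%) and 62.1% in the control library (45.5 to 75.6%). For Solyc03g020050 it was 50.6% in the heat-stress library (30.6 to 69.4%) and 66.7% in the control library (38.4 to 88.2%). For Solyc09g084470 the percentage was 27.7 in the heat-stress library (24.6 to 31.0) and 32.4 in the control library (28.7 to 36.2). By peak height its ratio was 0.905, below 1, while by all reads it was 1.06.

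The models most like the leading member of each cluster were found by distance in log2(RPM + 1) over the 2 libraries. For Solyc09g089510 the nearest were Solyc02g086650.2, with 54.3 RPM in the heat-stress library against 225 RPM in the control library at a distance of 0.16, and Solyc02g092790.2, with 66.8 RPM against 237 RPM at 0.21. Within 0.5 of Solyc09g089510 lay 3 models outside the list. For Solyc09g084470 there were 918 models within that distance, and for Solyc03g020080 there were 1104. These counts follow from the same levels and ratios with which the list was chosen, so nothing is read from them. The nearest to Solyc09g084470 was Solyc04g074080.2, with 56.5 RPM in the heat-stress library against 53.1 RPM in the control library. The nearest to Solyc03g020080 was Solyc05g009610.1, with 12.8 RPM in the heat-stress library against 7.72 RPM in the control library. Likeness over 2 libraries is a description of level alone.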

How the data were processed

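Leaf RNA was profiled in 1 heat-stress and 1 control MACE library. Per the labels' protocols, polyadenylated RNA was captured and 500 bp at the 3' end were read. The submitters' processing notes name FastQC. Aligner, build, annotation and strand setting were not given in the sources used here. The authors deposited an estimated count of reads for every model, without normalization and often fractional, and a highest-peak signal in reads, per the file headers. The column headed TPM equalled reads per 1000000 mapped reads on every row (largest difference 3.42e-08), so the deposited values are RPM with no length term.

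Models absent from a library were taken as 0. Ratios, exact intervals on rounded reads, log2 ratios (pseudocount 1 RPM, filter of a mean of 5 RPM) and counts past 2-fold were computed with Python 3.11.15, numpy 2.4.6, pandas 2.3.3 and scipy 1.17.1, and tested on simulated data. Reads counted as whole within 0.000001. A number is called fractional otherwise. The named models are the 10 members, models near them in identifier number, and the 2 nearest in level to the leading member of each cluster. The nearer of each pair is printed, and both for Solyc09g089510. The members and lists were chosen with earlier results of these data known. A list of wound and jasmonate pathway genes and leaf markers needs gene names and was not used. Alternatives were other pseudocounts, scalings, filters, thresholds, whole-number reads and peak heights.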

Additional observations from a re-analysis of the deposited data

How the results depend on the processing

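No alternative turned a 2-fold difference round. Of 50 log2 ratios of single members under other pseudocounts, scalings and peak heights, 47 shifted by less than the distance between a member's log2 ratio without pseudocount and the bound of its counting interval, and 3 by more. Of these, 2 were of Solyc09g089540, at -2.27 with a pseudocount of 5 RPM and -2.59 by peak height against -3.10 as reported, and 1 was of Solyc09g084470, at -0.14 by peak height. Both sign changes were of Solyc09g084470, by peak height and by median scaling (-0.03). Solyc09g089500 has a wide interval and ran from -0.32 with a pseudocount of 5 RPM to -2.08 with 0.1 RPM, against -1.01 as reported. Scaling to the median ratio gave -2.21 for the second chromosome 9 cluster (-2.11 as reported, on the log2 scale), -0.08 for the first (0.03 as reported), 0.54 for the chromosome 3 cluster (0.64 as reported) and -1.20 for all members (-1.09 as reported). Peak heights gave -0.18 for the first chromosome 9 cluster and -0.996 for all members. Without Solyc09g089510 all members were at -0.26. Median scaling divides every heat-stress level by 1.08, which sets the size of the shifts under it. The causes of the cluster and total shifts by peak height were not tested. Of the 2 members at least 2-fold lower, a filter of 20 RPM left 1, since Solyc09g089540 has a lower mean, and no filter gave 3 with Solyc09g089500. Keeping models of whole-number reads left no member, so that alternative gave no value. Leaving out Solyc09g089510 and adding the unlisted models inside the clusters were chosen after seeing the data. No paired analysis was possible because there was 1 library per condition. Depth limits Solyc09g089500 and Solyc03g020050 most.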
